A study of Mus musculus with 12 samples.

Results

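Mir677, Mir3535, Mir1843b and Mir1843a are miRNA precursors whose genes lie on genes of other small RNAs, namely small nucleolar RNAs (snoRNAs) or small Cajal body RNAs (scaRNAs). With repeated entries counted once, the deposited tables hold 4357 non-coding transcripts, of which 1190 are miRNA precursors. The 4 named above were taken from these by symbol. Each was followed in 12 small RNA libraries and set against the summed counts of the 149 Snord, Snora and Scarna transcripts of the same tables.

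The libraries came from stem-like mouse medulloblastoma cells, with cerebellum as the source tissue, and fall into 3 groups of 4. The group labelled Miat knockdown has guides sgMiat-6 (libraries 6-1 and 6-2) and sgMiat-96 (96-1 and 96-2), and the group labelled Mtdh knockdown has guides sgMtdh-1 (1-1 and 1-2) and sgMtdh-2 (2-1 and 2-2). The control group, labelled WT, has the single guide sgGal4-4 (4-1 to 4-4). All 3 groups share the genotype Math1-Cre; SmoM2, in which Cre driven by the Math1 promoter, active in granule neuron precursors, switches on an activated form of the Hedgehog transducer Smoothened. The series text names CRISPR, and the kind of Cas protein is not given in the sources used here. Nothing in the labels ties the libraries of one guide to separate cultures, and p-values here reflect only the scatter among these libraries, which may be technical.

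Box C/D snoRNAs (Snord) guide methylation of ribosomal RNA, H/ACA snoRNAs (Snora) guide pseudouridylation, and scaRNAs guide the same modifications on spliceosomal RNAs in Cajal bodies. In mouse most are cut out of introns of host genes, many of which encode proteins of translation. A C/D RNA carries a box C and a box D near its ends, and an H/ACA RNA ends shortly after an ACA box. Some snoRNAs and scaRNAs are also cut into shorter fragments, and several miRNA database entries overlie such genes, so a count on the precursor does not tell which RNA the fragment came from.

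The 7 mature miRNAs that RefSeq (GRCm38.p6) gives for these precursors are printed to show where they sit on the parent RNA. Capitals mark the seed, bases 2 to 8.
miR-677-5p: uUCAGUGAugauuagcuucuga
miR-677-3p: gAAGCCAGaugccguuccugagaagg
miR-3535: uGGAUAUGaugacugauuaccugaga
miR-1843b-5p: aUGGAGGUcucugucugacuu
miR-1843b-3p: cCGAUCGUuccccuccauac
miR-1843a-5p: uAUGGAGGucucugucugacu
miR-1843a-3p: uCUGAUCGuucaccuccauaca
No pair of the 7 shares a seed, and 0 other mature entries of the table hold any of these seeds. miR-1843b-5p and miR-1843a-5p have a run of 20 of their 21 bases in common and differ in the base at which they start, which shifts the seed by 1 position.

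The snoRNAs at the Mir677 and Mir3535 loci and Snord59a, a relative in the Mir677 host gene, are printed next, from GENCODE M21 transcripts of GRCm38, because the ends of the mature miRNAs coincide with the ends of these RNAs. Capitals mark the first TGATGA, the letters of a box C core, and the last CTGA, the letters of a box D.
Mir677 locus snoRNA: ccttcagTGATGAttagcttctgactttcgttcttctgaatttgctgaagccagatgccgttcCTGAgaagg
Mir3535 locus snoRNA: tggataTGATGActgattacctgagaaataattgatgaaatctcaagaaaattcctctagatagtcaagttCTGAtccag
Snord59a: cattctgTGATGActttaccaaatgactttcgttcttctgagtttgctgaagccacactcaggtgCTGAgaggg
Mir677 is annotated at chr10:128085286-128085363 on the plus strand, 78 bases in an intron of Atp5b, the gene of the ATP synthase beta subunit. The 72-base snoRNA of GENCODE lies inside it. miR-677-5p starts 2 bases after the snoRNA's first base, and miR-677-3p ends on its last base. The nearby Snord59a, at chr10:128084143-128084216 in the same host gene, is 78.4% identical to it over 74 aligned bases, with a shared run of 18 bases (tgactttcgttcttctga). Counts of Snord59a were not analysed here.

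Mir3535 is annotated at chr1:86351981-86352127 on the minus strand, 147 bases in Ncl, the gene of the nucleolar protein nucleolin, and it overlaps 1 exon of an Ncl transcript annotated with a retained intron. The 80-base snoRNA inside it is named Gm24148 in GENCODE, and miR-3535 begins on the first base of that snoRNA. The sequence TGATGA begins at base 8 of the snoRNA at the Mir677 locus and at base 7 of that at the Mir3535 locus, and the last CTGA leaves 5 bases after it in both. These snoRNAs are 50.6% identical to each other. Over 997 mouse hairpins of RefSeq, read on the RNA strand only, UGAUGA occurs in 25 (2.51%), UGAUGA followed by CUGA in 5 (0.502%), and both letters within 15 bases of the ends in 1 (0.100%). Mir677 is itself 1 of the 25 and of the 5, and it is the only match at the ends. The hairpin of Mir3535 is not among the 997. These shares are therefore not a background apart from the members. UGAUGA and CUGA do not overlap in these matches, and a match describes letters only.

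The scaRNAs under the other pair are printed to show how far the precursors reach into them. Capitals mark the stretch that the precursor covers.
Scarna3a: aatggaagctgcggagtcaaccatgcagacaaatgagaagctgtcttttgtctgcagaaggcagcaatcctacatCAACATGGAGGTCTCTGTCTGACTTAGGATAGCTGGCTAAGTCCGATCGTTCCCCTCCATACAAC
Scarna3b: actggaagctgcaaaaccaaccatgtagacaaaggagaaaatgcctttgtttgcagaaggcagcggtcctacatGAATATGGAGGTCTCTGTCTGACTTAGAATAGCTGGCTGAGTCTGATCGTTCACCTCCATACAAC
Mir1843b is annotated at chr1:159340358-159340423 on the plus strand, 66 bases in an intron of Cop1, which encodes a ubiquitin ligase, and it covers the 3′ part of Scarna3a (chr1:159340283-159340422). Mir1843a is annotated at chr12:80391613-80391677 on the minus strand, 65 bases in an intron of Dcaf5, and it covers the 3′ part of Scarna3b (chr12:80391613-80391751). The last ACA lies 2 bases before the end of both scaRNAs, and an ACA within the last 10 bases occurs in 148 of the 997 hairpins (14.8%). Mir1843b and Mir1843a are among those hairpins. miR-1843b-3p ends 3 bases and miR-1843a-3p ends 2 bases before the 3′ end of its scaRNA. The precursors are identical at 59 of 66 aligned bases (89.4%), with a longest common run of 23 bases. From Mir1843b to Mir1843a the substitutions are C1G, C4U, G28A, A39G, C44U and C53A, counted from 1 at the 5′ end of Mir1843b. Reads within the shared run could come from either gene, and how reads with several positions were counted is not given in the sources used here.

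**Figure D1:**
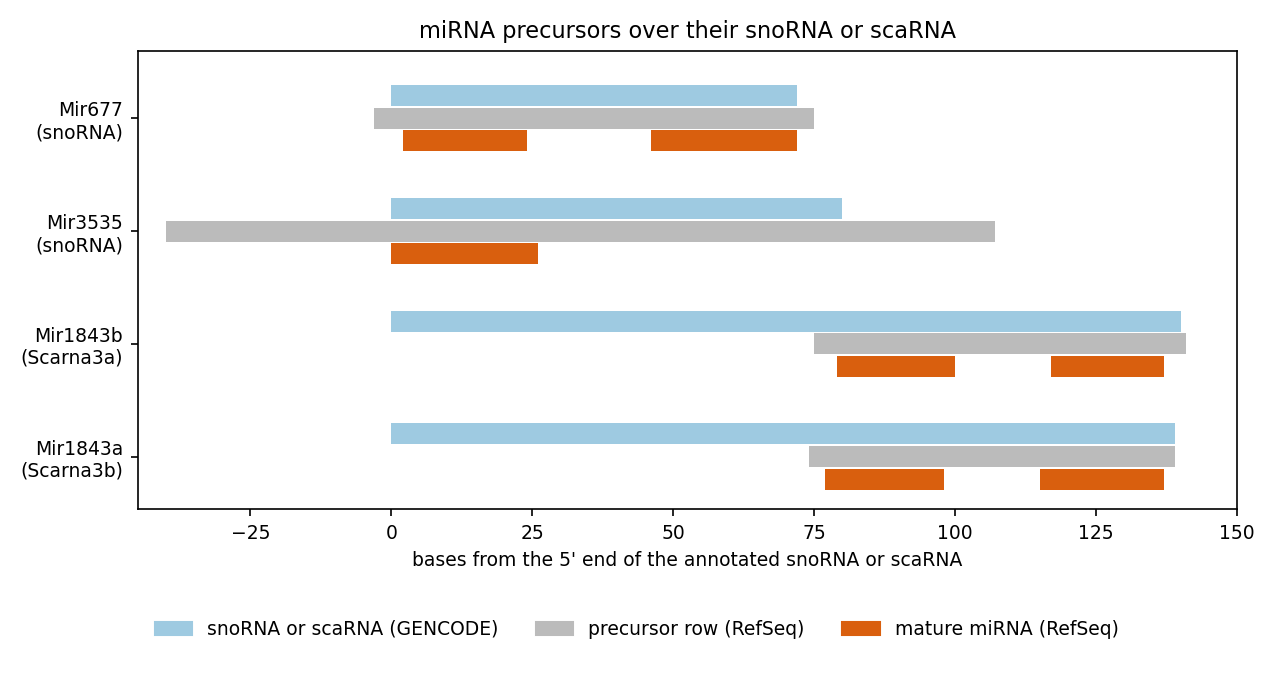
Position of each precursor (grey) and its mature miRNAs (orange) along the annotated snoRNA or scaRNA (blue), in bases from the 5′ end of that RNA. Mir677 and Mir3535 span the whole snoRNA, and the mature miRNAs of Mir1843b and Mir1843a lie in the 3′ part of Scarna3a and Scarna3b.

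The deposited counts per library, without repeated entries, were 82457 to 161038 in the Miat group, 22785 to 152115 in the Mtdh group and 33737 to 64366 in the control group. Fragments of Rn45s, the ribosomal RNA precursor, took 71.2% to 83.9%, 66.0% to 78.1% and 53.8% to 56.2% of the counts of these groups. Miat itself was counted 49 and 30 times with sgMiat-6, 1 and 0 times with sgMiat-96, 0, 0, 2 and 0 times in the Mtdh group and 0, 1, 1 and 1 times in controls. The direction with sgMiat-6 is opposite to the knockdown label, so groups are named here by their labels alone. Of the neural miRNA markers in the tables, 4 of 7 had counts (Mir9-1, Mir9-2, Mir9-3 and Mir128-1), and the Mir124a genes were at 0. Erythroid and white blood cell markers were at 0, and the endothelial marker Mir126a had 7 counts in all. In bulk samples, fewer cells of a type and less RNA per cell cannot be told apart.

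Mir677 held most of the members' counts. It had 1853 counts over the 12 libraries, 77.9% of the total of the members, against 253 for Mir3535, 200 for Mir1843b and 72 for Mir1843a. Of the 110 Snord, Snora and Scarna transcripts with counts, 12 had more than Mir677, led by Snord15a (11591), Snord49a (11444), Snord47 (9460), Snord19 (9282) and Snord45c (7238). Among miRNA precursors at such loci the members had the most counts, but they were chosen with earlier results of these data known. The other 8 precursors that overlie an annotated snoRNA or scaRNA had between 0 and 14 counts in all. Mir6516 had 5 in the Miat group, 5 in the Mtdh group and 4 in controls, and Mir5121 had 3, 5 and 2.

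Per length of the annotated precursor, the order of levels in controls was Mir677, Mir1843b, Mir3535 and Mir1843a. Control libraries held 11263 ± 1317 TMM-scaled counts per 1000000 per kilobase of Mir677 (SD, n = 4), 3395 ± 1693 of Mir1843b, 1327 ± 441 of Mir3535 and 567 ± 392 of Mir1843a. TMM is edgeR's factor that aligns most transcripts between libraries. The control libraries of Mir677 did not overlap those of any other member, while Mir1843b overlapped Mir3535 and Mir3535 overlapped Mir1843a. The order below Mir677 depends on the lengths used. Over the 118-base Scarna3a entry, nearly the same counts as for Mir1843b gave 1957 ± 1033 in controls. Mir3535 is divided by 147 bases, although the snoRNA inside it has 80.

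The precursor and its scaRNA were not counted apart at the Mir1843b locus. The deposited counts of Mir1843b and Scarna3a, a 118-base RefSeq entry that holds the whole precursor, were the same in 11 of 12 libraries. Mir1843b had 27, 20, 35 and 10 counts in the Miat group, 7, 24, 9 and 2 in the Mtdh group and 4, 25, 13 and 24 in the control group. Scarna3a differed in control 4-2, with 27, which left 200 counts against 202 (99.0%). The precursor covers 66 of the 118 bases of that entry, and the counts give no value for Mir1843b apart from Scarna3a.

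Mir1843a and Scarna3b were less alike. Mir1843a had 17, 23, 0 and 7 counts in the Miat group, 3, 4, 3 and 5 in the Mtdh group and 2, 0, 4 and 4 in the control group. Scarna3b had 17, 23, 1 and 7 in the Miat group, 3, 5, 5 and 5 in the Mtdh group and 3, 2, 4 and 9 in the control group. The values were equal in 6 libraries, the precursor was never higher, and its total was 85.7% of the scaRNA's. The widest gap, 5 counts, was in control 4-4.

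**Figure D2:**
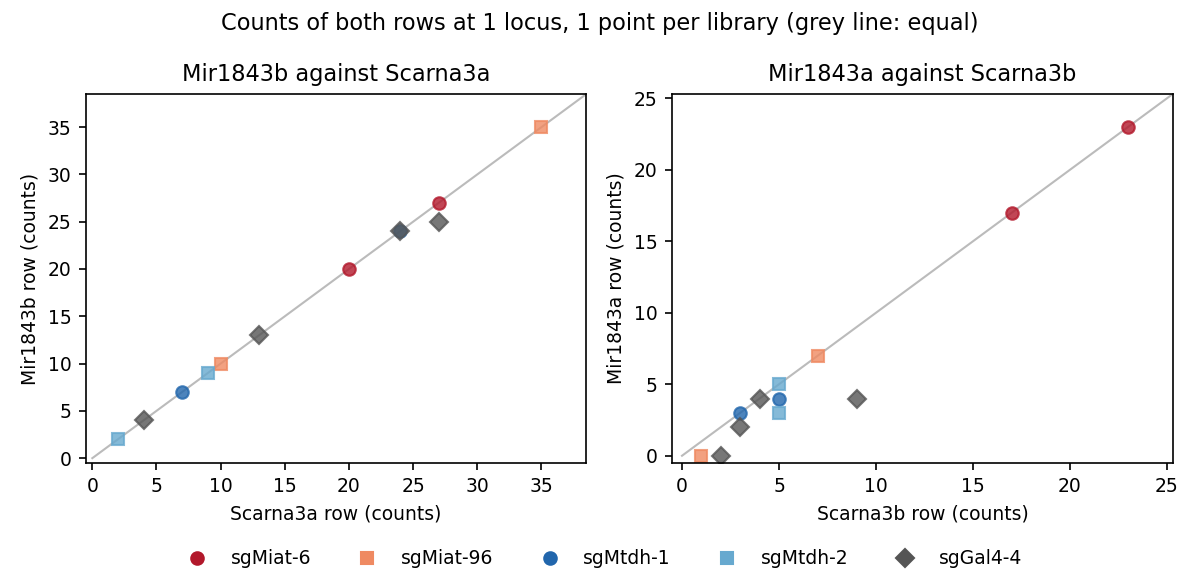
Counts of Mir1843b against Scarna3a and of Mir1843a against Scarna3b, 1 point per library, coloured by guide. Points on the grey line are equal: 11 of 12 for Mir1843b and 6 of 12 for Mir1843a.

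The first comparison asked whether the members differ between libraries labelled Miat knockdown and control. Mir677 was the member that rose, by 3.26-fold, and the counts of Mir3535 and Mir1843b did not pass the test. Mir677 was counted 417, 239, 201 and 172 times in libraries 6-1, 6-2, 96-1 and 96-2, against 41, 66, 68 and 64 times in control libraries. Scaled with TMM these are 3184, 2330, 2455 and 3499 counts per 1000000 (CPM) in the Miat group, against 876, 905, 991 and 743 CPM in the control group. The lowest Miat library stood above the highest control, as was so for 11.6% of tested transcripts. The log2 fold change was 1.70 (SE 0.33, edgeR quasi-likelihood test, adjusted p = 0.00257). Of the 147 transcripts tested, 12.9% passed in either direction, 10.2% as higher and 2.72% as lower, and Mir677 ranked 11 by fold. The median log2 fold change of all 147 was 0.18. Of the 28 tested miRNA precursors other than the members, 1 was higher and 3 were lower, with a median of -0.53.

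The call for Mir677 in the Miat group held without each of the 12 libraries in turn, with a log2 fold change of 1.60 to 1.97 (edgeR adjusted p from 0.00149 to 0.0135). It did not hold with library totals in place of TMM, where the log2 fold change was 0.81 (edgeR adjusted p = 0.162) and the median of all tested transcripts was -0.66. Relative to that median Mir677 was 1.47 higher, against 1.53 higher with TMM. The share of Rn45s did not overlap between the groups. With Rn45s left out of the fit, the log2 fold change of Mir677 was 1.56 (edgeR adjusted p = 0.00737). Any further part of Rn45s in the result was not tested.

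Mir3535 and Mir1843b were measured less precisely, from 2 to 49 counts per library. Mir3535 had 28, 49, 17 and 21 counts in the Miat group, against 8, 9, 19 and 18 in the control group. That is 208 to 478 CPM in the Miat group and 123 to 277 CPM in controls, which overlap. Its log2 fold change was 0.75 (SE 0.48, edgeR adjusted p = 0.364), and -0.14 with library totals. Mir1843b averaged 258 ± 113 CPM in the Miat group and 224 ± 112 CPM in controls (SD, n = 4 each), with a log2 fold change of 0.18 (SE 0.52, edgeR adjusted p = 0.841), and -0.61 with library totals. Mir1843a failed the filter on low counts. Its summed rate per 1000000 counts was 106 in the Miat group and 53.1 in controls, with exact Poisson intervals of 77.6 to 140 and 25.5 to 97.7 that cover counting error only. In a fit with no filter its log2 fold change was 1.49 (SE 0.92, edgeR adjusted p = 0.537), where 0.98% of 1735 transcripts passed.

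Libraries labelled Mtdh knockdown were set against the same controls to ask whether a second target moved the members. Mir677 rose here as well, by 2.29-fold, and the other members did not pass. Mir677 was counted 51, 344, 137 and 53 times in libraries 1-1, 1-2, 2-1 and 2-2, or 2055, 2848, 1413 and 1727 CPM, against the 743 to 991 CPM of the control libraries. The groups did not overlap, which in this direction was so for 10.2% of transcripts. The log2 fold change was 1.20 (SE 0.33, edgeR adjusted p = 0.0313), where 10.9% of transcripts passed, 8.16% as higher and 2.72% as lower, and Mir677 ranked 22 by fold. The same controls serve both comparisons.

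This call rested on more of the libraries than the one for the Miat group. Without control 4-1, 4-2, 4-3 or 4-4 the edgeR adjusted p for Mir677 was 0.0867, 0.0795, 0.0769 and 0.119, and without Mtdh 1-1 or 1-2 it was 0.0589 and 0.0614. The log2 fold change stayed between 0.97 and 1.34 when single libraries were left out. It was 0.43 with library totals (edgeR adjusted p = 0.468), where the median of all tested transcripts was -0.82, which puts Mir677 1.25 above that median, against 1.18 with TMM. With Rn45s left out of the fit, the log2 fold change of Mir677 was 1.24 (edgeR adjusted p = 0.0312).

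Mir3535 had 13, 26, 24 and 21 counts in the Mtdh group, which scale to 524, 215, 248 and 684 CPM, against 171, 123, 277 and 209 CPM in controls. Libraries 1-1 and 2-2, each the shallower library of its guide, were above all controls, and the other pair lay among them. The log2 fold change was 1.02 (SE 0.49, edgeR adjusted p = 0.227). Mir1843b averaged 160 ± 99.8 CPM in the Mtdh group and 224 ± 112 CPM in controls, with a log2 fold change of -0.55 (SE 0.55, edgeR adjusted p = 0.531). Mir1843a had a summed rate of 42.1 per 1000000 counts in the Mtdh group (exact Poisson interval 23.6 to 69.4), against 53.1 in controls. Scaled with TMM it averaged 87.0 ± 65.7 CPM in the Mtdh group and 36.9 ± 25.5 CPM in controls, the opposite direction. The summed rate pools unscaled counts and the CPM values are means of TMM-scaled libraries, so these values differ in both pooling and scaling. The part of each in the turn was not tested. The fit with no filter gave a log2 fold change of 0.66 (SE 0.98, edgeR adjusted p = 0.839).

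**Figure D3:**
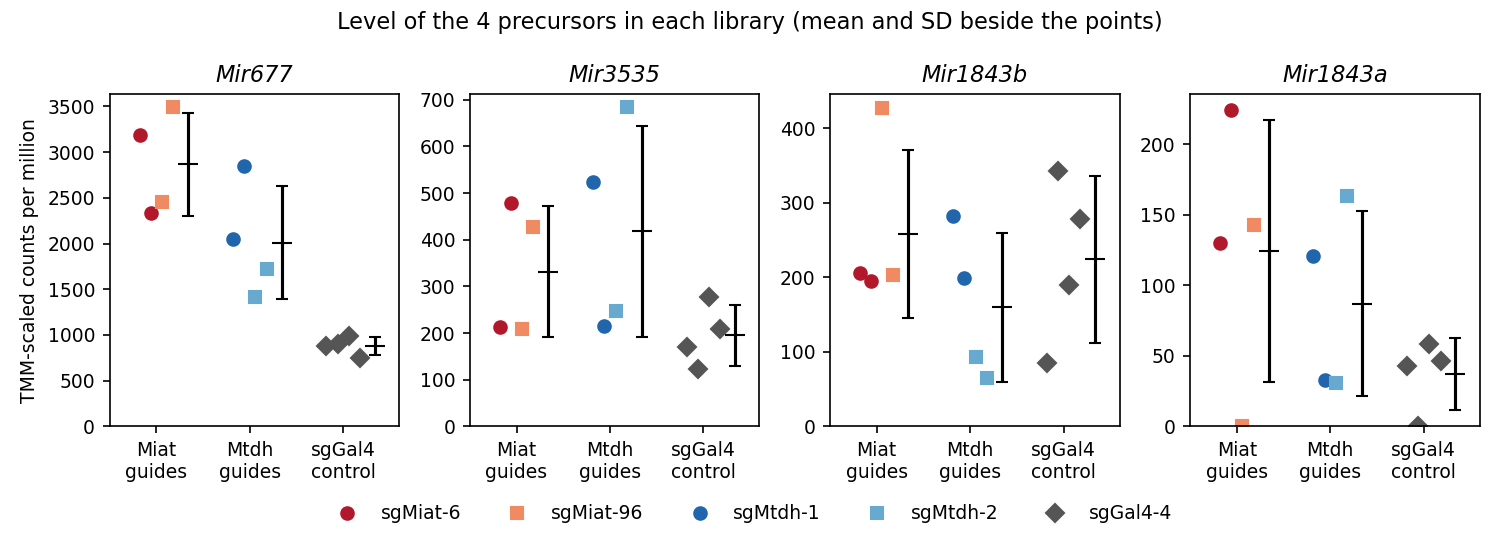
TMM-scaled CPM of each precursor in each library, with 1 point per library coloured by guide and the mean and SD of the group beside the points. Mir677 libraries of the Miat and Mtdh groups lie at 1413 to 3499 CPM, above the control libraries at 743 to 991 CPM, and the groups of the other precursors overlap.

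The Mtdh and Miat groups were also compared with each other, since a shared control cannot show whether they differ. No member passed the edgeR test in this contrast, where 4.08% of transcripts did. Mir677 averaged 2011 ± 617 CPM in the Mtdh group and 2867 ± 565 CPM in the Miat group (SD, n = 4 each), with a log2 fold change of -0.51 (SE 0.32, edgeR unadjusted p = 0.132, adjusted p = 0.344). The log2 fold change was 0.27 for Mir3535 (SE 0.48, edgeR adjusted p = 0.782) and -0.73 for Mir1843b (SE 0.55, edgeR adjusted p = 0.441). The unadjusted edgeR p of these was 0.575 and 0.204. With limma-voom, Mir677, Mir3535 and Mir1843b did not pass either. DESeq2 passed neither Mir677 nor Mir3535 and gave no adjusted p for Mir1843b.

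Against the summed snoRNA and scaRNA counts, Mir677 rose as well. Snord, Snora and Scarna transcripts took 9.84% ± 2.50 of the counts in the Miat group, 8.14% ± 1.53 in the Mtdh group and 15.7% ± 0.400 in controls (SD, n = 4 each). The difference from control had an exact permutation p of 0.0286 for each target, the smallest that 4 against 4 libraries can give. Outside Rn45s the share was 39.5% in the Miat group (exact p = 0.143) and 29.3% in the Mtdh group (exact p = 0.0286), against 35.1% in controls, so for Miat the direction turned with the total used.

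Per 1000 of these counts Mir677 had 22.2, 17.2, 25.6 and 32.3 in the Miat group, 24.1, 27.7, 15.5 and 17.6 in the Mtdh group and 7.95, 8.66, 9.96 and 6.37 in controls. Each library with a Miat or Mtdh guide was above every control. Groups did not overlap in the upward direction for 10.9% of transcripts in each comparison. With the sum as library size, the log2 fold change of Mir677 was 1.56 for Miat (SE 0.30, edgeR adjusted p = 0.00532, 14.3% of transcripts passed) and 1.36 for Mtdh (SE 0.30, edgeR adjusted p = 0.00958, 8.84% passed). The median of the 65 tested snoRNA and scaRNA transcripts on this scale was 0.02 for Miat and -0.04 for Mtdh. Both calls held without each library in turn, with a highest edgeR adjusted p of 0.0298 for Miat and 0.0492 for Mtdh. Between Mtdh and Miat the log2 fold change was -0.19 (SE 0.29, edgeR adjusted p = 0.702, 6.8% passed).

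The result for Mir677 differed with the kind of snoRNA in the sum. Snord transcripts held 89832 of the 101935 counts, Scarna 7754 and Snora 4349. Against Snora alone, Mir677 did not pass for Miat (log2 fold change 0.74, edgeR adjusted p = 0.422) or Mtdh (1.60, 0.0765), and against Scarna alone it passed for both (3.19 with adjusted p = 4.13e-05 for Miat, 1.53 with 0.0291 for Mtdh). Against Scarna it was also lower in the Mtdh than in the Miat group (-1.66, 0.0083). Summed Scarna counts were 311 to 483 in the Miat group and 549 to 1216 in controls, although the control libraries were shallower. The share of all transcripts that pass per Snora or Scarna count was not computed. Mir3535 per 1000 summed counts averaged 2.78 ± 1.15 in the Miat group, 4.48 ± 2.44 in the Mtdh group and 1.83 ± 0.685 in controls. On this scale its log2 fold change was 0.58 for Miat (edgeR adjusted p = 0.484) and 1.22 for Mtdh (0.153). Mir1843b averaged 2.30 ± 1.45 in the Miat group, 1.73 ± 1.18 in the Mtdh group and 2.09 ± 1.04 in controls, and its log2 fold change was 0.10 for Miat (edgeR adjusted p = 0.956) and -0.36 for Mtdh (0.722).

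**Figure D4:**
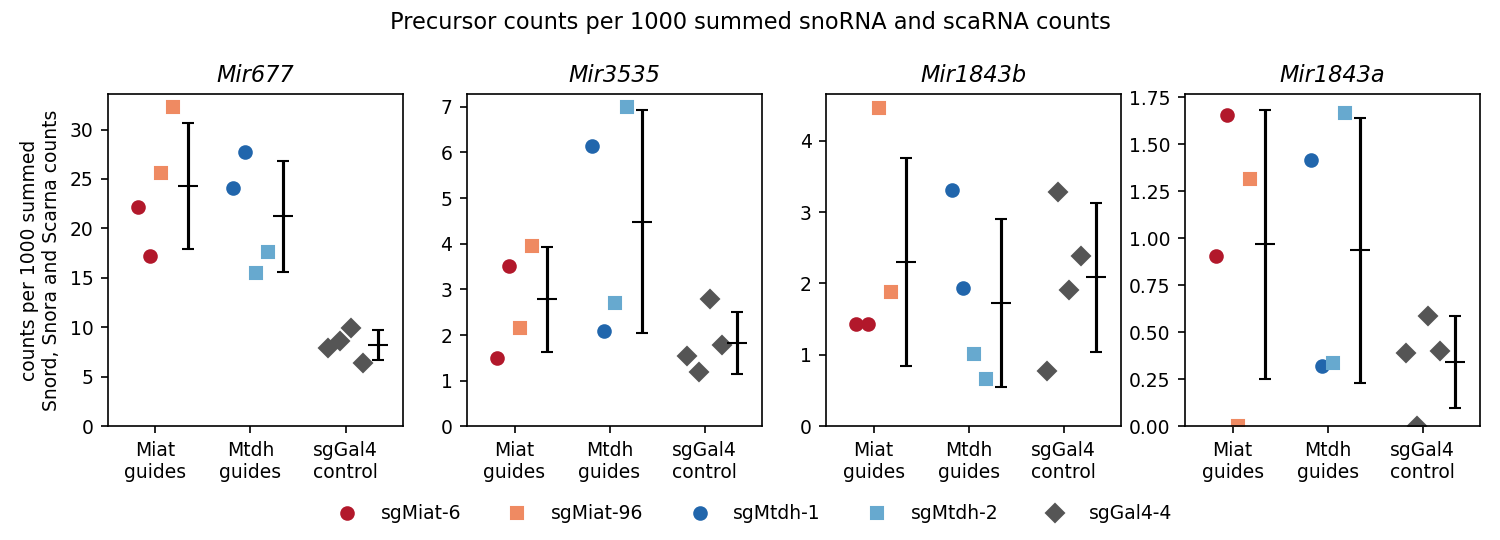
Counts of each precursor per 1000 summed Snord, Snora and Scarna counts, 1 point per library coloured by guide, with the mean and SD of the group beside the points. Mir677 lies at 15.5 to 32.3 with Miat or Mtdh guides, above 6.37 to 9.96 in controls.

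With TMM, 5 of the 65 tested snoRNAs and scaRNAs were higher and 1 was lower in the Miat group (median log2 fold change 0.16), against 15 higher and 4 lower of all 147 (median 0.18). In the Mtdh group 1 was higher and 1 lower (median -0.22), against 12 and 4 of all 147 (median 0.01). The transcripts that passed are named here after their values were seen. In the Miat group Snora81 (log2 fold change 3.11), Snord67 (2.80), Snord37 (2.53), Scarna2 (2.47) and Snord57 (1.58) rose and Scarna6 (-1.69) fell. In the Mtdh group Scarna2 (3.81) rose and Scarna17 (-2.72) fell.

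By guide, the log2 fold change of Mir677 against control was 1.65 with sgMiat-6 (SE 0.28, edgeR adjusted p = 5.55e-04), 1.76 with sgMiat-96 (SE 0.28, 2.38e-04), 1.49 with sgMtdh-1 (SE 0.28, 0.00148) and 0.83 with sgMtdh-2 (SE 0.29, 0.0576). The last did not pass. The shares of transcripts that passed were 26.5%, 19.0%, 10.9% and 18.4%. With the snoRNA and scaRNA sum as library size, sgMtdh-2 gave 1.00 (edgeR adjusted p = 0.0203). With library totals the guides in the same order gave 0.83, 0.80, 0.79 and -0.062 (edgeR adjusted p = 0.0954, 0.0778, 0.0914 and 0.930), so none passed on that scale. The guides of one target did not differ in Mir677 beyond the test: the log2 fold change was 0.11 for sgMiat-96 over sgMiat-6 (SE 0.32, edgeR adjusted p = 0.839) and -0.66 for sgMtdh-2 over sgMtdh-1 (SE 0.34, 0.410). The counts of Miat itself, given above, were far apart between these Miat guides.

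Mir3535 had log2 fold changes of 0.81, 0.66, 0.79 and 1.16 with sgMiat-6, sgMiat-96, sgMtdh-1 and sgMtdh-2 (edgeR adjusted p from 0.168 to 0.475). Mir1843b had -0.19, 0.49, 0.01 and -1.44 (edgeR adjusted p from 0.139 to 0.987). The sgMtdh-2 value of Mir1843b comes from 9 and 2 counts, and with library totals it was -2.44 and passed (edgeR adjusted p = 0.0191). Mir1843a had its highest counts, 17 and 23, with sgMiat-6, where the fit with no filter gave a log2 fold change of 2.05 (SE 0.97, edgeR adjusted p = 0.747, 1.33% of transcripts passed), against 0 and 7 counts with sgMiat-96.

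**Figure D5:**
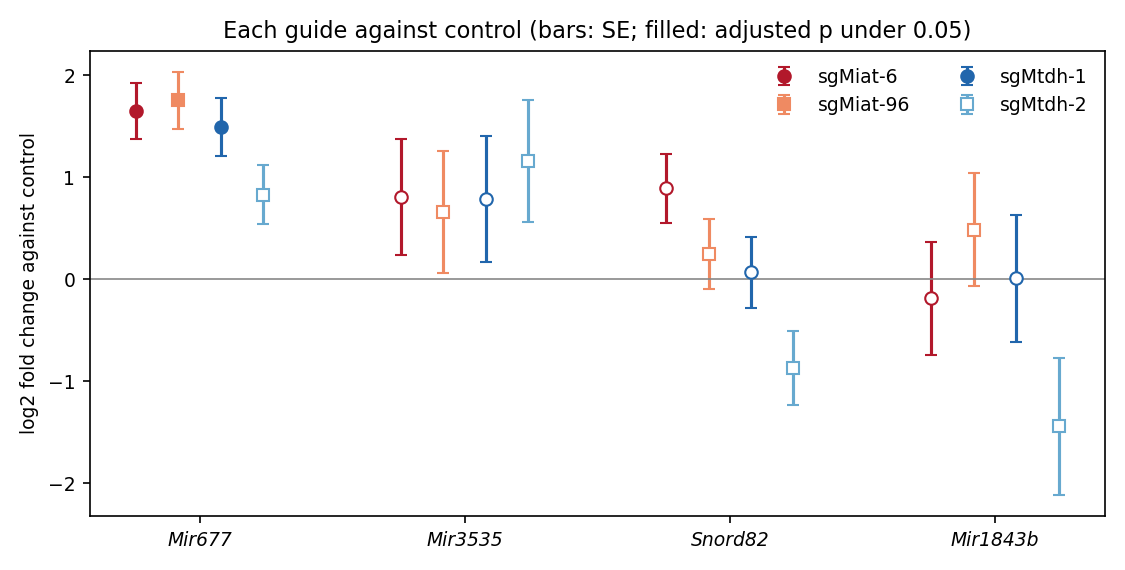
Log2 fold change against control for each guide, with bars of 1 SE and filled points where the edgeR adjusted p is under 0.05. Filled points are Mir677 with sgMiat-6, sgMiat-96 and sgMtdh-1, and Mir677 with sgMtdh-2 and all points of Mir3535, Snord82 and Mir1843b are open.

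The Snord, Snora and Scarna transcripts analysed here within the Mir3535 host gene are Snord82 and Snora75, and neither overlaps Mir3535. Snord82 had 2946 counts in all and had a log2 fold change of 0.60 for Miat (SE 0.39, edgeR adjusted p = 0.364) and -0.34 for Mtdh (SE 0.39, 0.575). Its CPM was 5315, 4222, 3725 and 2360 in the Miat group, 1612, 3668, 1805 and 945 in the Mtdh group and 2585, 2673, 2273 and 2751 in controls. Controls were close together. In the Miat group 3 libraries lay above them and 1 among them, and the Mtdh group reached to both sides. Snora75 had 80 counts in all, with log2 fold changes of -1.68 for Miat (SE 1.04, edgeR adjusted p = 0.358) and 0.70 for Mtdh (SE 0.97, 0.639). Between Mtdh and Miat the log2 fold change was -0.95 for Snord82 (SE 0.39, edgeR adjusted p = 0.182) and 2.38 for Snora75 (SE 1.07, 0.210), against 0.27 for Mir3535. The unadjusted p of these differences was 0.0285 for Snord82 and 0.0400 for Snora75, and neither passed after adjustment. Scarna3a gave 0.14 for Miat and -0.59 for Mtdh, close to Mir1843b, with which it shares its counts.

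The transcripts most like each tested member over the 12 libraries were ranked by Pearson's r of log2 CPM, as a description, since libraries share their depth, scaling and group differences. For Mir677 they were Rn45s (0.82), Snord37 (0.76) and Mir6236 (0.74). For Mir3535 they were Atp2a2 (0.89), 2900097C17Rik (0.80) and Snord42a (0.80). For Mir1843b they were Scarna3a (0.999), Snord65 (0.66) and Snord82 (0.51).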

How the data were processed

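Small RNA of 12 libraries was analysed from the authors' deposited tables, which per the file headers give raw counts, FPKM and TPM per RefSeq non-coding transcript. The submitters' processing notes name STAR, GRCm38 and mm10, with no versions or roles. Adapter trimming, strand handling, the counter and its treatment of reads with several positions or overlapping transcripts have no statement in the sources used here. Deposited FPKM values served only to derive the transcript lengths behind the values per kilobase, and TPM values were not used. Transcripts that repeat another of the same symbol in every library, 172 of 4529 with 1.30% to 3.47% of counts, were counted once.

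The members and lists were chosen with earlier results of these data known. The named transcripts were the members, the Snord, Snora and Scarna transcripts analysed here at their host genes, other precursors at snoRNA or scaRNA loci with 10 or more counts, the 5 most counted snoRNAs or scaRNAs, and 3 transcripts most like each tested member.

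The quasi-likelihood test of edgeR 4.0.16 (R 4.3.3) was applied to the counts of all non-coding classes together. Low counts were removed with filterByExpr (minimum count 10, total of at least 15), libraries were scaled with TMM, and groups, or in a second model guides, were the terms over all libraries. This left 147 transcripts, 3 of them members, with a biological coefficient of variation of 0.499. Benjamini-Hochberg adjustment ran over all tested transcripts of a contrast at 0.05, two-sided. The fit was tested on simulated data. Ratios used the summed Snord, Snora and Scarna counts as library size. Shares were compared by exact permutation. Other scalings, filters, tools (DESeq2 1.42.0, limma 3.58.1) and left-out libraries or guides were alternatives. Precision is limited by the 22785 to 161038 counts per library and by the scatter between libraries. The Poisson intervals of Mir1843a cover counting error only. Positions and sequences came from GENCODE M21 and RefSeq, where Mir3535 was matched by its accession and the sequences of the others by name. Python 3.11.15 was used for joins and plots.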

Additional observations from a re-analysis of the deposited data

Results flagged for a closer look

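The Miat library 96-1 stood apart from the other 3 in Mir1843b, by Dixon's test at the 95% level. It had 427 CPM, against 195 to 206 CPM in the others, and 4.46 counts per 1000 summed snoRNA and scaRNA counts, against 1.44 to 1.88. The value rests on 35 counts. The 24 tests of this kind took each member in each group on both scales. Both scales use the same counts, so the flags on them are not separate. Chance alone flags about 1 in 20 such tests.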

How the results depend on the processing

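In the Miat group the log2 fold change of Mir677 kept its direction under all 30 alternatives and passed in 27. Exceptions were library totals (0.81), no filter (1.51, edgeR adjusted p = 0.146) and the replicate block (1.69, 0.122). In the Mtdh group it kept its direction under all 30 and passed in 19. It did not pass with library totals (0.43), a minimum count of 3 (1.02, edgeR adjusted p = 0.221), no filter (0.95, 0.597), the replicate block (1.16, 0.321), without sgMtdh-1 (0.83, 0.161) or without 6 of the single libraries. Over all 12 it ranged from 0.97 to 1.34. Labels do not say if library numbers pair libraries. Blocking on them drops controls 4-3 and 4-4, whose numbers are unique, so lost calls need not reflect pairing. Same-numbered libraries correlated at -0.33 to 0.26 in deviations from guide means. These mirror each other where a guide has 2 libraries and cannot exclude a pairing. The block gave 1 edgeR call for Miat, 0 for Mtdh (22 at an unadjusted p under 0.05) and 2 between them.

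Values of members that did not pass turned sign, or passed where stated, as follows. For Miat against control, Mir3535 was at -0.14 and Mir1843b at -0.61 with library totals, and Mir1843b ranged from -0.068 to 0.45 without single libraries. For Mtdh against control, Mir3535 passed when miRNA precursors were tested alone (1.60, edgeR adjusted p = 0.0425), and Mir1843b was at 0.026 without sgMtdh-2. Between Mtdh and Miat, Mir3535 was at -0.045 without sgMiat-96 and at -0.087 to 0.52 without single libraries. By guide with library totals, Mir3535 was at -0.33 and Mir1843b at -0.30 with sgMiat-96, Mir1843b at -0.64 with sgMtdh-1 and, passing, at -2.44 with sgMtdh-2, Mir677 at -0.062 with sgMtdh-2 and at -0.032 between the Miat guides. With the summed snoRNA and scaRNA counts Mir3535 was at 0.28 between the Miat guides.

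Per Snora count, Miat against control gave 0.74 for Mir677, -0.21 for Mir3535 and -0.79 for Mir1843b. Mtdh against control gave 1.60 for Mir677, and Mtdh against Miat gave 0.85 for Mir677 and 0.65 for Mir1843b. Per Scarna count, Mir677 passed for Miat (3.19) and Mtdh (1.53) against control, and Miat against control also passed for Mir3535 (2.25, edgeR adjusted p = 0.00242) and Mir1843b (1.61, 0.0211). Mtdh against Miat passed for Mir677 (-1.66) and Mir1843b (-1.79, edgeR adjusted p = 0.0207) and gave -0.99 for Mir3535. The Scarna sum was itself lower in the Miat group than in controls, and the share of all transcripts that pass on this scale was not computed. Mir1843b also shares its counts with Scarna3a, which is part of that sum. Per summed count, Mir1843b ranged from -0.43 to 0.40 for Miat and from -0.82 to 0.071 between the targets without single libraries. The share of snoRNA and scaRNA counts outside Rn45s was 4.36 percentage points higher in the Miat group than in controls. The causes were not tested.

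The transcripts called were 19 for Miat, 16 for Mtdh and 6 between them, and ranged over all alternatives from 1 to 43, 0 to 46 and 2 to 38. Calls split into 15 higher and 4 lower for Miat and 12 and 4 for Mtdh with TMM, into 6 and 27 and 7 and 39 with library totals, and into 12 and 9 and 11 and 2 with the summed counts. Members other than Mir677 had 0 to 49 counts per library, which limits their precision. A count of 0 allows up to 3 counts.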
